A study of Mus musculus with 12 samples.

Results

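RNA levels of 43 genes that drive or control the cell cycle and mitosis were followed in blood stem and progenitor cells of the mouse fetal liver. The members were taken from a list of symbols, and all 43 were found among the 24054 genes of the tables. By role they fall into 4 cyclin-dependent kinases (CDKs), 5 D and E cyclins, 3 A and B cyclins, 4 enzymes that set CDK phosphorylation, and 6 factors of the RB-E2F branch with Foxm1. A further 5 are mitotic kinases and, counted among them, Birc5, a partner of the kinase Aurkb. The others are 6 genes of the spindle checkpoint and the anaphase-promoting complex (APC/C), 3 centromere and kinetochore genes, 5 spindle motors and microtubule proteins, and 2 chromosome proteins of dividing cells.

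The libraries came from fetal liver at E13.5, from cells with the LSK markers of early blood cells. LT-HSC (long-term haematopoietic stem cells) were sorted as CD150+ CD48- and MPP (multipotent progenitors) as CD150- CD48+. All 6 mutants, 3 LT-HSC and 3 MPP, carried Setdb1 p/p;vav-cre. Setdb1 encodes a histone H3 lysine 9 methyltransferase, and vav-cre is a Cre transgene active in blood cells. All 6 controls carried Setdb1 +/p, so they hold 1 p allele too, and the labels do not define that allele. LT-HSC controls 2 and 3 and MPP control 3 also carried vav-cre, while the other 3 controls (LT-HSC 1, MPP 1 and 2) are labelled +/+ in its place. An LT-HSC sample held 500 to 1000 sorted cells and an MPP sample 20000. Whether each library is a separate animal, and whether LT-HSC and MPP libraries share fetuses, is not in the labels. The deposited files carry a second numbering that differs from the titles' replicate numbers for some libraries. It may mark such sharing, it is not explained in the labels, and it was not used here. The p-values therefore cover the spread between libraries alone, and that spread may be technical.

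Levels are given in CPM, expected counts scaled to a common library size with TMM. Total expected counts lay between 10119416 and 14113198 per library. Every member was counted in every library, and the lowest member count was 73, for Rb1 in LT-HSC mutant 2, so every member passed the filter on low counts in each comparison. Setdb1 itself ranged from 73.4 to 108 CPM in LT-HSC controls and from 66.3 to 80.1 CPM in LT-HSC mutants. In MPP it ranged from 87.9 to 141 CPM among controls and from 86.6 to 117 CPM in mutants, and the difference passed edgeR's test in neither cell type (adjusted p = 0.651 and 0.598). Of 12 stem cell genes, 11 were lower in MPP controls than in LT-HSC controls, which is the direction the sort labels give.

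In the cell cycle, D cyclins with Cdk4 and Cdk6 phosphorylate Rb1 and its relatives, which frees E2F factors to switch on genes of DNA replication. Cyclin E and cyclin A with Cdk2 drive replication, and Cdk1 with A and B cyclins drives entry into mitosis, where Plk1 and the Aurora kinases build the spindle. The spindle checkpoint then holds back the APC/C, a ubiquitin ligase whose activator Cdc20 and enzyme Ube2c lead to the destruction of B cyclins. Stem cells of the fetal liver divide actively, unlike most stem cells of adult bone marrow.

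Many genes of late cell cycle phases share short promoter elements, the CCAAT box bound by NF-Y and the cell cycle genes homology region (CHR) bound by the MuvB complexes. The 120 bases before the RefSeq start (GRCm38.p6) are shown for 7 members with key roles in mitosis, 5 of which were higher in MPP mutants and 2 of which, Cdk1 and Top2a, were not. Each is written 5′ to 3′ along the gene's strand, with CCAAT and TTTGAA and their reverse complements, ATTGG and TTCAAA, in capitals.
Cdk1: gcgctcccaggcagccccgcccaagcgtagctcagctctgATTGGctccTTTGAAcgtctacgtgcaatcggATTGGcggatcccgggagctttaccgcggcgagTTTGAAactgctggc
Ccnb1: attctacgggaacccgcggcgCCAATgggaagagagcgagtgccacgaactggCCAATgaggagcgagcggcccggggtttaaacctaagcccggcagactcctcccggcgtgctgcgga
Plk1: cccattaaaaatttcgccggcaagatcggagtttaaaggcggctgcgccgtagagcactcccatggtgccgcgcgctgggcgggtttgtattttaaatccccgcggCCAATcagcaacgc
Cdc20: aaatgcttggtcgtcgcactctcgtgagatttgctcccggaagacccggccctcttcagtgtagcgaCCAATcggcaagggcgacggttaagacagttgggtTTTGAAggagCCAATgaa
Ube2c: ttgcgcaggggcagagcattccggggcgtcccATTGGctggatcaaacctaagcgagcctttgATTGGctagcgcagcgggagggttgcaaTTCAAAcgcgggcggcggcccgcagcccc
Kif11: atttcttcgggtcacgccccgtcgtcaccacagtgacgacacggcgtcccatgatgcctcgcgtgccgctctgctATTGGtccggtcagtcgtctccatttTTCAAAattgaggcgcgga
Top2a: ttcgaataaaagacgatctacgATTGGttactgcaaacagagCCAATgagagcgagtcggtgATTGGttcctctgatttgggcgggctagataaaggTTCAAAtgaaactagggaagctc

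The printed windows are Cdk1 at chr10:69352913-69353032 on the minus strand, Ccnb1 at chr13:100786487-100786606 on the minus strand, Plk1 at chr7:122159315-122159434 on the plus strand and Cdc20 at chr4:118437344-118437463 on the minus strand. The others are Ube2c at chr2:164769809-164769928 on the plus strand, Kif11 at chr19:37376262-37376381 on the plus strand and Top2a at chr11:99024190-99024309 on the minus strand. A promoter was matched for 32 of the 43 members (34 start sites). Over the 250 bases before each start, read on both strands, CCAAT was found in 70.6% of the members' promoters and in 33.8% of all 32851 promoters of the same length. The CHR, searched as TTTGAA, was found in 26.5% against 16.0%, and each of these 9 member promoters also held CCAAT, a combination found in 5.55% of all promoters. E2F words (TTTGGCGC, TTTCCCGC or TTTCGCGC, whose matches here overlap neither other motif) were found in 4 member promoters, those of Rbl1, Cdc25a, Cdk1 and Cdk2, or 11.8% against 1.53%. Every printed window holds CCAAT on 1 strand or the other. The same 120 bases of Birc5, Plk4, Mad2l1, Nusap1, Rbl1, E2f1, Ccne1, Cdk4 and Cdk6, not printed, hold neither CCAAT nor TTTGAA on either strand. Matches of this kind describe the letters of these windows and do not show a bound site.

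**Figure D1:**
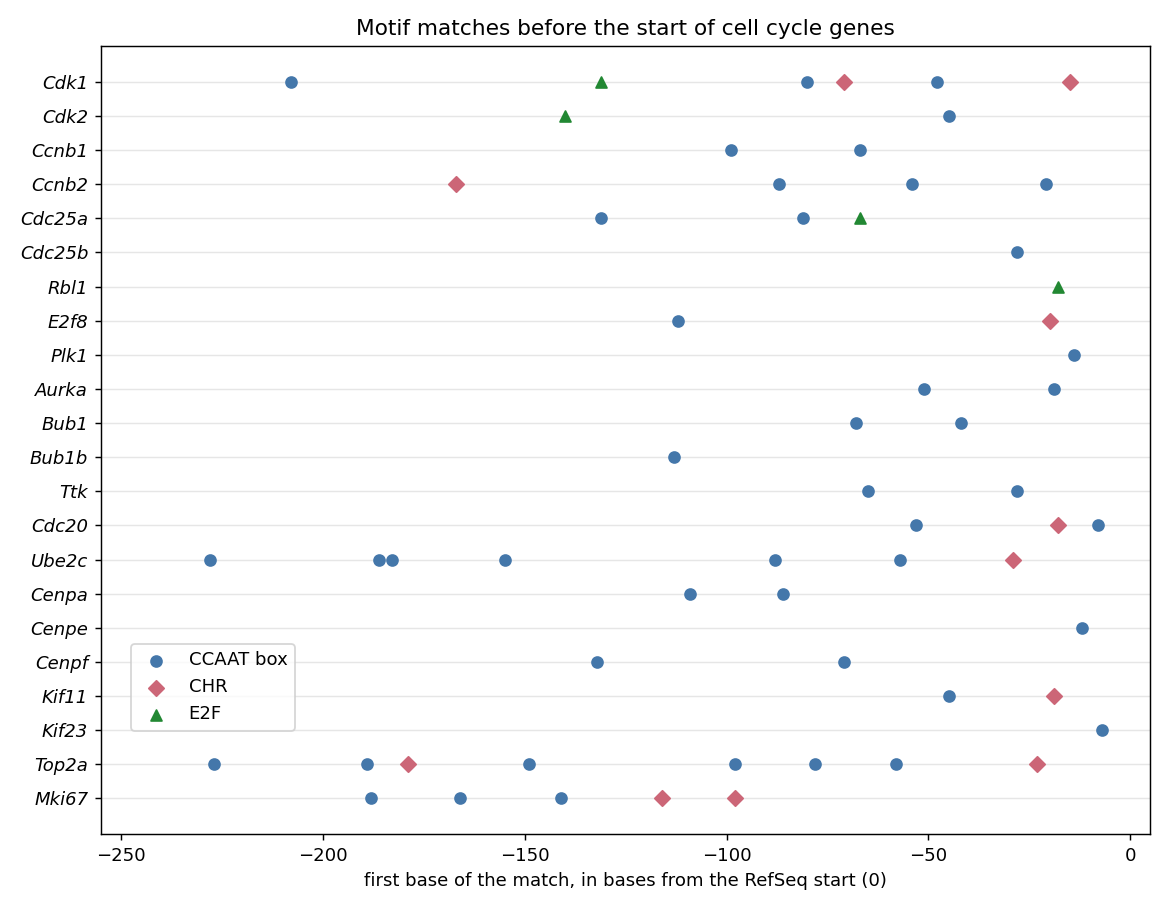
Positions of matches to the CCAAT box, the CHR and the E2F words on either strand in the 250 bases before the RefSeq start (x axis, bases from the start at 0), for members with a match (y axis). Ccnd3 and E2f2, with several starts each, are left out. Most CCAAT matches lie within 100 bases of the start, and Cdk1, E2f8, Cdc20, Ube2c, Kif11 and Top2a have a CHR within 30 bases of it.

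Compared per transcript length as TPM (the share of transcripts after correction for length), the members spanned a wide range of levels. Cdk4, the partner of the D cyclins, was the highest in all 4 groups, at 1120 ± 35.1 TPM in LT-HSC controls and 1300 ± 54.8 TPM in MPP controls (SD, n = 3). Its relative Cdk6 stood at 11.3 ± 2.84 and 31.8 ± 5.33 TPM in the same groups. Among the D cyclins of LT-HSC controls, Ccnd3 stood at 326 ± 21.2 TPM, Ccnd2 at 122 ± 4.7 TPM and Ccnd1 at 18.2 ± 3.17 TPM (SD, n = 3), and these ranges did not meet. Rb1, which restrains E2F factors, was the lowest member in all 4 groups, at 3.49 ± 1.06 TPM in LT-HSC controls, while its relative Rbl1 (p107) stood at 53.4 ± 2.35 TPM (SD, n = 3).

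Across the groups, mean CPM was lowest in LT-HSC controls for 35 of the 43 members and highest in MPP mutants for 34. The order of the groups was not counted over all genes. Summed over all members, the level was 6783, 7597 and 7228 CPM across LT-HSC controls 1, 2 and 3 and 7143, 8943 and 7981 CPM in the LT-HSC mutants. In MPP it was 9677, 9254 and 9344 CPM in the controls and 10160, 11370 and 10800 CPM in the mutants. Every MPP library therefore lay above every LT-HSC library, the MPP groups did not overlap, and the LT-HSC groups did. A bulk level cannot tell a larger share of cycling cells from more RNA of these genes in each cell.

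**Figure D2:**
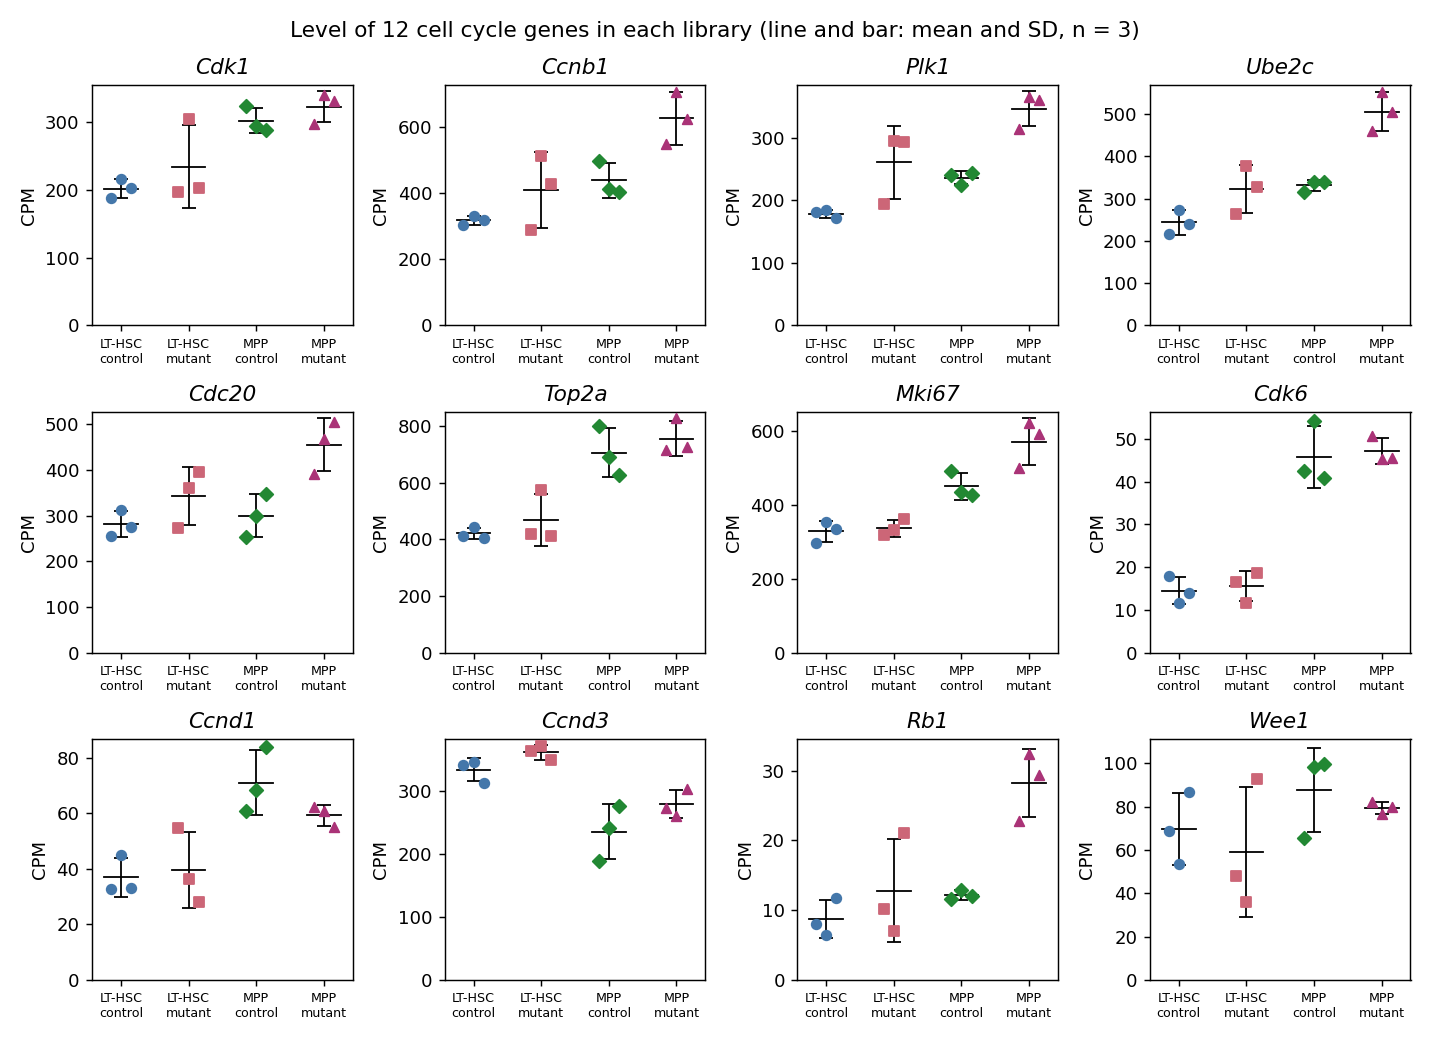
Level in CPM (y axis, linear, from 0) of 12 members in each library of the 4 groups (x axis), as points, with the mean as a line and the SD as a bar (n = 3). Cdk6 separates MPP from LT-HSC, Rb1 stands out in MPP mutants at 22.8 to 32.4 CPM, and Ccnd3 is lower in MPP controls than in LT-HSC controls.

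MPP controls were first set against LT-HSC controls, to ask how the cell cycle genes differ between progenitor and stem cells. In MPP, 28 of the 43 members were higher and 1, Ccnd3, was lower, by edgeR's quasi-likelihood test with Benjamini-Hochberg adjustment over all genes tested (adjusted p under 0.05). Over all 12834 genes tested, 18% were higher and 20.5% lower. The median log2 fold change of the members was 0.43, against -0.01 over all genes and the typical member had an SE of 0.104. The numbers of sorted cells differ between the cell types too, and their effect cannot be told apart from that of the cell type.

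Among the CDKs, 3 of 4 were higher in MPP, and Cdk2 was not called (log2 fold change -0.05). Cdk6 showed the largest change of all members. It stood at 18.0, 11.6 and 13.9 CPM across LT-HSC controls 1, 2 and 3 against 42.5, 54.1 and 40.8 CPM in the MPP controls, with no overlap. The difference was 3.13-fold (log2 1.65, SE 0.185; edgeR adjusted p = 0.000124). The gene lies on chromosome 5 from 3341004 to 3531008 in GRCm38. Cdk1, the mitotic CDK, stood at 187, 215 and 202 CPM across the LT-HSC controls against 323, 294 and 288 CPM in MPP controls, again apart (log2 0.57, SE 0.0891; edgeR adjusted p = 0.000871). Cdk4 rose by 0.36 on the log2 scale.

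The D and E cyclins did not move together. Ccnd1 stood at 32.6, 44.9 and 33.2 CPM across the LT-HSC controls against 60.9, 68.4 and 83.8 CPM in MPP controls, and was 1.91-fold higher in MPP (log2 0.94, SE 0.163; edgeR adjusted p = 0.00169). Ccnd3 went the other way, from 341, 346 and 312 CPM to 188, 241 and 275 CPM, and fell by 0.51 on the log2 scale (SE 0.128; edgeR adjusted p = 0.0109). Neither pair of groups overlapped. Of the 4709 exon bases of Ccnd1, 1100 lie opposite exons of LTO1, from which reads cannot be told apart without strand. Ccnd2 ranged from 370 to 395 CPM in LT-HSC controls and from 393 to 422 CPM in MPP controls and was not called (log2 0.09). Ccne1 and Ccne2, which start replication with Cdk2, had log2 fold changes of 0.09 and 0.04, and their groups overlapped.

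The mitotic cyclins Ccnb1 (log2 0.45) and Ccna2 (0.42) were higher in MPP, and Ccnb2 (0.24) was not called. The groups of Ccna2 overlapped, with LT-HSC control 3 at 229 CPM and MPP control 1 at 228 CPM. It kept its call under 7 of 13 alternatives. Of the enzymes that set CDK phosphorylation, the activating phosphatases Cdc25a (0.58) and Cdc25c (0.47) rose. Cdc25b had a log2 fold change of -0.42 and the inhibitory kinase Wee1 one of 0.33, neither of them called. Wee1 varied widely between libraries of 1 group, from 53.3 to 86.8 CPM in LT-HSC controls and from 65.5 to 99.6 CPM in MPP controls. In the RB-E2F branch, Foxm1, a transcription factor of mitotic genes, and E2f8, a repressor among the E2Fs, were the 2 of 6 that rose. Foxm1 stood at 57.5, 60.3 and 62.1 CPM across the LT-HSC controls against 77.3, 95.8 and 91.5 CPM in MPP controls (log2 0.55, SE 0.106; edgeR adjusted p = 0.00297). E2f2 had the lowest value of this role, at -0.10.

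All 5 spindle motors and microtubule proteins rose, from 0.40 for Nusap1 to 0.63 for Kif23 on the log2 scale. Kif23, a kinesin of the midzone and of cytokinesis, stood at 112, 133 and 126 CPM across the LT-HSC controls against 206, 188 and 185 CPM in MPP controls. Kif20a, another kinesin of cytokinesis, went from 201, 237 and 228 CPM to 375, 318 and 319 CPM. Tpx2, the spindle factor that activates Aurora A, went from 182, 218 and 192 CPM to 333, 282 and 275 CPM (log2 0.58). In each of these 3 genes the groups stayed apart.

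Of the spindle checkpoint and APC/C genes, 5 of 6 rose, and Cdc20 (0.08) was not called. The checkpoint kinase-like protein Bub1b (BubR1) stood at 212, 211 and 226 CPM across the LT-HSC controls against 399, 347 and 341 CPM in MPP controls (log2 0.73, SE 0.0888; edgeR adjusted p = 0.000196). Mad2l1, the checkpoint protein Mad2, went from 106, 110 and 116 CPM to 178, 147 and 158 CPM. Both sets of groups were apart. Of the mitotic kinases with Birc5, 4 of 5 rose. Aurkb, the kinase of the chromosomal passenger complex, had the largest change of these (0.47), from 176, 195 and 186 CPM to 243, 266 and 267 CPM. Plk4, which controls centriole duplication, was not called (0.14).

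Top2a, the topoisomerase that untangles chromosomes, stood at 413, 442 and 406 CPM across the LT-HSC controls against 801, 690 and 627 CPM in MPP controls, well apart (log2 0.74, SE 0.0992; edgeR adjusted p = 0.000361). Mki67, which coats mitotic chromosomes and is used as a marker of proliferation, rose by 0.44. It stood at 297, 352 and 335 CPM and at 490, 433 and 425 CPM. Of the centromere genes, the kinetochore motor Cenpe (0.43) and Cenpf (0.42) rose, while the histone variant Cenpa did not pass (0.13). For 28 of the members the LT-HSC and MPP controls did not overlap, 27 of them higher in MPP, against 51.1% of all genes without overlap, 24.8% higher and 26.3% lower. Without any 1 of the control libraries the number of members called stayed between 25 and 30. That of all genes lay between 3410 and 4873, against 4942 in the main fit. Markers of other cells differed between the same libraries, with 10 of 12 tested lymphoid genes and 6 of 11 granulocyte and monocyte genes higher in MPP, and 12 of 14 hepatoblast, 9 of 15 red cell and 8 of 12 macrophage genes lower. Their part in the members' differences was not tested. A joint fit of all 12 libraries called 25 members and 4152 of 13249 genes. A joint fit with only the controls that carry vav-cre, which leaves 1 MPP and 2 LT-HSC controls, called 1 member, Cdk6.

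**Figure D3:**
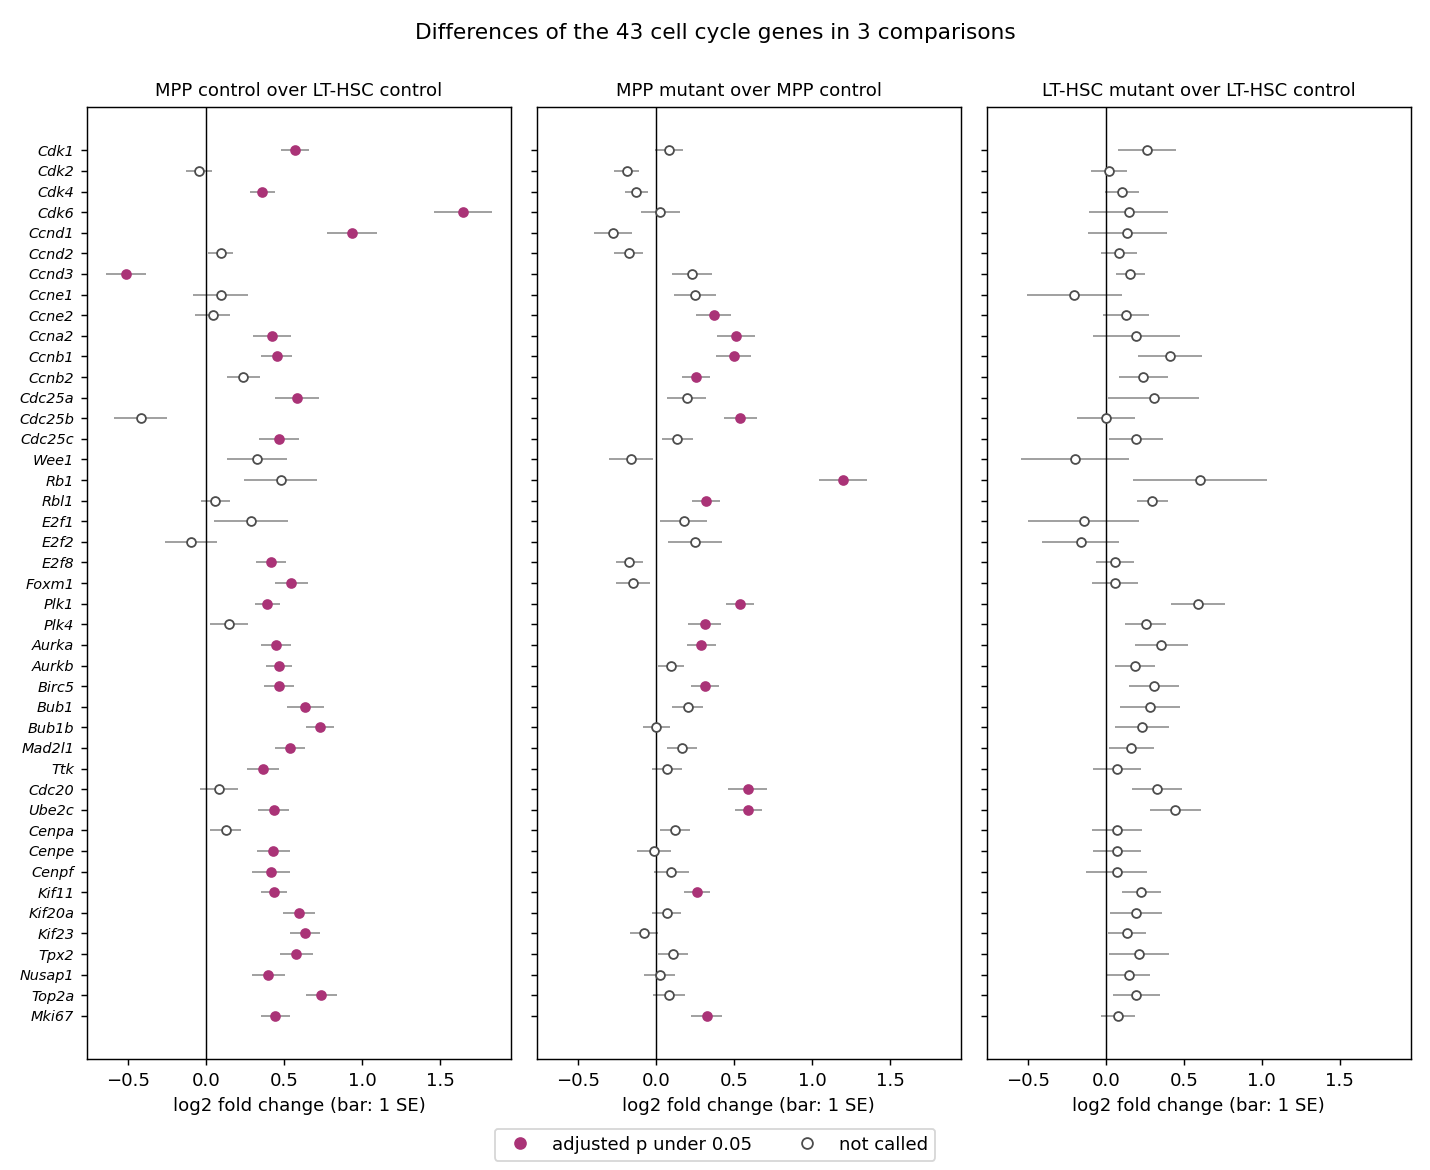
Log2 fold change (x axis, bar: 1 SE) of each of the 43 members (y axis) in MPP controls over LT-HSC controls, MPP mutants over controls, and LT-HSC mutants over controls. Filled points passed edgeR's test at an adjusted p under 0.05, 29 in the first panel, 15 in the second and 0 in the third; MPP controls enter the first 2 panels and LT-HSC controls the first and the third.

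The next comparison asked which of these genes differ between mutant and control MPP. In the mutants, 15 members were higher and 0 were lower by edgeR's test, and 17 of the 43 (39.5%) had an unadjusted p under 0.05, against 45.4% of all genes. With upper-quartile scaling in place of TMM, 10 were higher and 1, Cdk2, was lower. Over all 12392 genes tested, 16.5% were higher, 18.5% lower and 35% called in either direction, so the members' share called in either direction, 34.9%, was near that of all genes, while all 15 called members were higher. Their median log2 fold change was 0.17, against -0.01 over all genes. The MPP controls also served in the comparison of cell types above, so the results are not independent of each other.

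All 3 A and B cyclins rose in the mutants. Ccnb1, the main cyclin of mitotic entry, stood at 499, 413 and 405 CPM in MPP controls 1, 2 and 3 and at 549, 707 and 624 CPM among the mutants. The groups did not overlap, and the change was 1.41-fold (log2 0.50, SE 0.111; edgeR adjusted p = 0.00517). Ccna2, the cyclin of replication and early mitosis, stood at 228, 298 and 288 CPM among controls and at 335, 416 and 426 CPM in mutants (log2 0.52). Ccnb2 had the smallest change of the 3 (0.26). Their partner Cdk1 overlapped between the groups, at 323, 294 and 288 CPM among controls and 296, 340 and 331 CPM in mutants, and was not called (log2 0.08, SE 0.0888).

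Ube2c and Cdc20 of the APC/C rose as well, and so did Plk1, Plk4, Aurka and Birc5, 4 of the 5 genes counted as mitotic kinases or Birc5. Ube2c, the ubiquitin-conjugating enzyme of the APC/C, stood at 316, 339 and 339 CPM among controls and at 459, 552 and 505 CPM in mutants, far apart for the spread within either group (1.51-fold, log2 0.59, SE 0.0883; edgeR adjusted p = 0.000445). Cdc20, its activator, went from 253, 300 and 348 CPM to 392, 469 and 506 CPM (log2 0.59, SE 0.125; edgeR adjusted p = 0.00399). The other 4 of these genes, all of them checkpoint genes, were not called, the lowest being Bub1b (log2 0.00). Plk1, the polo kinase of mitotic entry and spindle assembly, stood at 241, 225 and 244 CPM among controls and at 315, 365 and 361 CPM in mutants (log2 0.54, SE 0.0878; edgeR adjusted p = 0.000815). Birc5 (survivin), a passenger complex subunit, went from 295, 264 and 263 CPM to 317, 365 and 353 CPM (log2 0.32). Aurka (0.29) and Plk4 (0.31) rose too, and Aurkb (0.10) was not called. The groups of Ube2c, Cdc20, Plk1 and Birc5 did not overlap.

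Among the phosphatases, Cdc25b alone was called. It stood at 60.5, 61.4 and 71.4 CPM among MPP controls and at 84.3, 101 and 98.6 CPM in mutants, with no overlap (log2 0.54, SE 0.104; edgeR adjusted p = 0.00231). Wee1 ranged from 65.5 to 99.6 CPM among controls and from 76.6 to 82.0 CPM in mutants, inside the range of the controls. Mki67 rose from 490, 433 and 425 CPM to 498, 620 and 591 CPM (log2 0.33, SE 0.0988; edgeR adjusted p = 0.0247), and mutant 1 lay only just above control 1. Top2a ranged from 627 to 801 CPM among controls and from 716 to 826 CPM in mutants and was not called (0.08). Of the spindle motors, Kif11, which pushes the spindle poles apart, rose (0.26), and Kif23 had the lowest value of that role (-0.08). The 3 centromere genes lay between -0.01 (Cenpe) and 0.12 (Cenpa) and none was called.

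Rb1 had the largest change of the members in MPP mutants. It stood at 11.6, 12.9 and 12 CPM among controls and at 22.8, 32.4 and 29.4 CPM in mutants, and the mutants all lay well above the controls. The change was 2.29-fold (log2 1.20, SE 0.154; edgeR adjusted p = 0.000176). The gene lies on chromosome 14 from 73192858 to 73325951 in GRCm38, and 408 and 488 of its 6015 exon bases lie opposite exons of Lpar6 and Rcbtb2, from which reads cannot be told apart without strand. Its relative Rbl1 stood at 107, 116 and 123 CPM among controls and at 138, 155 and 143 CPM in mutants (log2 0.32, SE 0.0894; edgeR adjusted p = 0.0164). The E2F factors and Foxm1 were not called, with E2f8 lowest at -0.17. Foxm1 stood at 77.3, 95.8 and 91.5 CPM among controls and at 75.1, 76.7 and 89.2 CPM in mutants, overlapping.

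Of the 9 CDKs and D and E cyclins, 1 rose in MPP mutants. None of the 4 CDKs was called with all 6 libraries and TMM scaling, and they lay between -0.19 (Cdk2) and 0.08 (Cdk1) on the log2 scale. Cdk6 ranged from 40.8 to 54.1 CPM among controls and from 45.3 to 50.7 CPM in mutants. Ccne2 was the only cyclin of its role to rise, from 72.1, 64.9 and 61.8 CPM to 74.1, 96.8 and 88.8 CPM (log2 0.37, SE 0.113; edgeR adjusted p = 0.025), with 609 of its 3495 exon bases opposite Ints8. Ccnd1 (-0.27), Ccnd2 (-0.18), Ccnd3 (0.23) and Ccne1 (0.25) were not called. Ccnd1 ranged from 55.0 to 62.1 CPM in mutants against 60.9 to 83.8 CPM in controls, and Ccne1 from 37.2 to 52.8 against 34.9 to 40.8 CPM. With Rb1 and Ccne2, 12 members have exon bases opposite another gene of the tables. The share of the member's exon bases was 29.3% for Kif20a, 22.8% for Ube2c, 19.7% for Cdk4 and 12.5% for Ccna2. It was under 5% for Ccnd2, Nusap1, Ccnd3, Cdc20, Cdc25b and Cdk2. Other members lie opposite genes not found in the tables by their symbol, some of which may be there under an older one. Their share was 23.4% for Ccnd1, 12.7% for Cdc25c, 11.2% for E2f8 and 7.09% for Plk1, and lower for Cdk6.

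The MPP groups did not overlap for 20 members, 17 higher and 3 lower (Cdk2, Cdk4 and E2f8, none of them called), where 50.5% of all genes did not overlap, 25.4% higher and 25% lower. Among the called members, Ccnb2 and Aurka kept their call under 5 of 13 alternatives, and Plk4, Mki67 and Kif11 under 6. Ccne2 kept it under 7, Birc5 under 8, Rbl1 under 10 and Ccna2 under 11. Rb1, Ube2c, Plk1, Cdc20, Cdc25b and Ccnb1 kept their call under 12 of 13 alternatives. They lost it in a joint fit of the 9 libraries that carry vav-cre, which has 1 MPP control, MPP control 3. In that setting, which changes both the controls and the fit, 0 members and 125 genes were called, and the log2 fold change of Rb1 was 1.18 with a wider SE of 0.61 (edgeR adjusted p = 0.346). The joint fit of all 12 libraries called 10 members and 2792 of 13249 genes. Without MPP mutant 2, 7 members and 2774 of 12626 genes were called. The counts were 7 and 2867 of 12609 without MPP mutant 3, and 8 and 3284 of 12608 without MPP control 2. Without MPP control 1 they were 20 and 4756 of 12556, with the members Cdk2, Ccnd1 and Wee1 lower. In each of these settings the number of all genes called, 4337 in the main fit, moved in the same direction as that of the members.

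Markers of other cells moved between the same MPP libraries. Summed over 15 red cell genes, the level was 1171 to 2636 CPM among controls and 4626 to 7358 CPM in mutants, and 13 of the 15 were higher. Macrophage genes fell in 11 of 12 (701 to 1056 CPM summed in controls, 184 to 283 CPM in mutants), lymphoid genes in 12 of 12 tested (943 to 999 against 355 to 499 CPM) and hepatoblast genes in 7 of 14 (289 to 586 against 98.6 to 131 CPM). Granulocyte and monocyte genes split, with 3 of 11 higher and 5 lower. Of the stem cell genes, 5 of 12 were lower and 1 higher. Within the red cell sum, Car1 alone went from a mean of 9.85 to 1510 CPM. None of these markers was at 0 in all libraries. The part of these shifts in the members' change was not tested.

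In LT-HSC mutants none of the 43 members was called, by edgeR or by DESeq2, and 3 (6.98%) had an unadjusted p under 0.05 with edgeR, against 9.5% of all genes. Over all 12847 genes, 0.42% were called. Of the members, 39 had a positive log2 fold change, with a median of 0.16 against 0.03 over all genes. The typical SE was 0.162, against 0.0991 in MPP, so smaller changes could be seen in MPP than in LT-HSC. The largest value was that of Rb1 (0.60, SE 0.429).

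Plk1 came closest to the threshold, at 181, 184 and 172 CPM across LT-HSC controls 1, 2 and 3 and 194, 295 and 294 CPM in mutants (log2 0.59, SE 0.176; edgeR adjusted p = 0.342). The groups did not overlap, though mutant 1 was near the controls. Rbl1 stood at 106, 118 and 106 CPM among controls and at 129, 131 and 134 CPM in mutants, again apart (log2 0.30; edgeR adjusted p = 0.399). Ube2c stood at 216, 274 and 241 CPM and at 263, 376 and 327 CPM, with mutant 1 inside the range of the controls (log2 0.45; edgeR adjusted p = 0.443). Ccnd3 was the third member without overlap, at 341, 346 and 312 CPM among controls and 363, 371 and 348 CPM in mutants (log2 0.16). No overlap was seen in 16.3% of all genes, with 6.55% higher and 9.76% lower in the mutants.

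The LT-HSC mutants differed among themselves, and not in the members alone. Over the genes counted, the chi-square per gene between 2 mutants was 24.8, 34.2 and 47.2, against 13.3 to 15.6 between 2 LT-HSC controls. The coefficients and counts below were computed for the members only, without the share over all genes. The median coefficient of variation of the members was 18.6% in LT-HSC mutants, against 8.8% in LT-HSC controls, 8.87% in MPP controls and 7.3% in MPP mutants. LT-HSC mutant 2 was the highest of its group for 28 members and above all 3 controls for 29, against 9 for mutant 1 and 18 for mutant 3. Ccnb1 shows this, at 305, 332 and 318 CPM among controls and 288, 514 and 428 CPM in mutants. Cdk1 stood at 187, 215 and 202 CPM among controls and 196, 304 and 202 CPM in mutants, and Top2a at 413, 442 and 406 CPM against 418, 573 and 410 CPM, so that in both the excess lay in mutant 2. Rb1 was instead highest in mutant 3, at 10.2, 7.05 and 21.1 CPM in the mutants and 7.96, 6.41 and 11.7 CPM in the controls.

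Without LT-HSC mutant 2 the median of the members was 0.05 and 26 of 43 were positive. That library had the lowest total of all 12, and its summed macrophage genes stood at 1470 CPM, near the controls (1108 to 1561 CPM), while mutants 1 and 3 stood at 99.9 and 238 CPM. The sum hides a split. In mutant 2, Vcam1 stood at 10.2 CPM against 98 to 116 CPM in controls and Cd5l at 40.4 against 153 to 202 CPM. Timd4 and Axl lay below all controls too. Emr1 lay inside the controls' range and the rest above it, such as Slc40a1 at 378 against 212 to 303 CPM. Hepatoblast genes summed to 541 to 1759 CPM in LT-HSC controls and 68.4 to 465 CPM in LT-HSC mutants. The stem cell genes of LT-HSC mutant 2 summed to 2688 CPM, the lowest of the LT-HSC libraries. The part of these differences in the members' levels was not tested. Among the LT-HSC controls, control 1, the one without vav-cre, was the lowest for 32 of the 43 members. The share over all genes was not counted. Control 1 differed from controls 2 and 3 in other sums too. Its hepatoblast genes stood at 541 CPM against 1748 and 1759 CPM, and its red cell genes at 2278 against 4967 and 3007 CPM. Its stem cell genes were higher, at 3936 against 3471 and 3531 CPM. The part of vav-cre or of these differences in the members' levels was not tested.

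In the remaining members of the named set, the LT-HSC groups overlapped. Mki67 ranged from 297 to 352 CPM among controls and from 317 to 361 CPM in mutants, and Foxm1 from 57.5 to 62.1 and from 52.2 to 72.3 CPM. Cdk6 ranged from 11.6 to 18.0 and from 11.7 to 18.6 CPM, Ccnd1 from 32.6 to 44.9 and from 27.9 to 54.6 CPM, and Ccnd2 from 370 to 395 and from 353 to 466 CPM. Ccne1 had the most negative value of all members (log2 -0.20, SE 0.302), with 27.1 to 44.2 CPM among controls and 19.9 to 41.5 CPM in mutants. Wee1 ranged from 53.3 to 86.8 CPM and from 35.8 to 93.0 CPM, wider in the mutants, and Ccne2 from 59.5 to 71.4 and from 61.3 to 78.1 CPM.

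**Figure D4:**
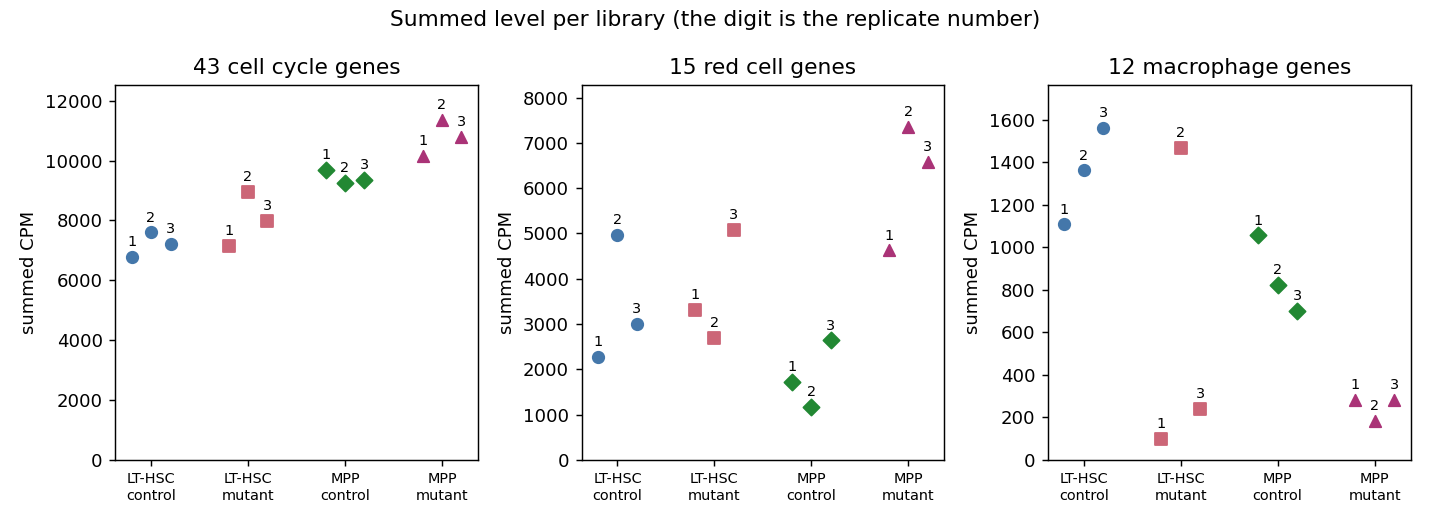
Summed CPM (y axis, linear, from 0) of the 43 cell cycle genes, of 15 red cell genes and of 12 macrophage genes in each library (points, numbered by replicate) of the 4 groups (x axis). The cell cycle sum runs from 6783 in LT-HSC control 1 to 11370 in MPP mutant 2, and LT-HSC mutant 2 stands apart from mutants 1 and 3 in the macrophage sum.

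Whether the mutant effect differed between MPP and LT-HSC was tested as an interaction over all 12 libraries. It called 0 of the 43 members with edgeR and 0 with DESeq2, against 0.377% of all genes with edgeR (0.151% higher, 0.226% lower). Cdc25b was the 1 member with an unadjusted p under 0.05 in edgeR's test, with log2 fold changes of 0.54 in MPP and 0.00 in LT-HSC (difference 0.60, SE 0.224; edgeR adjusted p = 0.292). The effects within each cell type come from fits of 6 libraries and the difference from 1 fit of all 12, with its own scaling and filter, so the difference is not exactly that of the effects. For Plk1 the 2 effects were 0.54 and 0.59, and the joint fit gave a difference of 0.02, smaller than its SE of 0.192. For Rb1 they were 1.20 and 0.60, with a difference of 0.65 (SE 0.488). The SE of a difference was 0.184 for the typical member, so differences of the size of most effects here could not be resolved. Without LT-HSC mutant 3, Ccna2 was called (0.81). It was 1 of 43 members, in a setting where 885 of 13513 genes were called, against 50 in the main fit.

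Other genes of the same pathways were counted in lists of known members, none of which repeats the 43. Between MPP and LT-HSC controls, where 18% of all genes were higher and 20.5% lower, DNA replication genes were higher in MPP in 16 of 30, lower in 0, with Pola1 (0.58), Mcm10 (0.59) and Ung (0.91) of the smallest p. In the list of kinetochore, passenger and further spindle or chromosome genes, 11 of 19 were higher (Spag5 0.59, Cdca5 0.47, Nuf2 0.48). Other mitotic kinesins and cytokinesis genes were higher in 10 of 15 (Ect2 0.74, Cep55 0.70, Kifc1 1.34). Condensin and cohesin genes were higher in 7 of 17 (Ncapd2 0.55, Rad21 0.62, Espl1 0.61), and APC/C and SCF genes in 5 of 18 (Cks1b 0.51, Cks2 0.47, Skp2 0.30). The medians of these 5 lists lay between 0.03 and 0.34, against -0.01 over all genes. Of the 6 CDK inhibitors tested, 2 were lower and 0 higher, with a median of -0.05. The lower ones were Cdkn1c (p57), which restrains the cycle of stem cells, at -1.38 (SE 0.245; edgeR adjusted p = 0.00186), and Cdkn2d (p19) at -0.62. The DREAM and MuvB list had 2 of 14 called in each direction, with Rbbp4 and Tfdp1 higher and Rbl2 and Tfdp2 lower.

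In MPP mutants the medians of these lists lay between -0.17 for CDK inhibitors and 0.14 for condensin and cohesin genes, against -0.01 over all genes. Over all genes 16.5% were higher and 18.5% lower, and each list's share of higher genes was near or below that. In the list of kinetochore, passenger and further spindle or chromosome genes, 3 of 19 were higher (Ska1 0.57, Casc5 0.42, Hmmr 0.49) and 1 lower (Cdca5, -0.23). APC/C and SCF genes were higher in 3 of 18 (Cdc27 0.43, Cks2 0.43, Fzr1 0.40) and lower in 1 (Skp2, -0.28). Replication genes were higher in 3 of 30 (Orc1, Rrm2 and Mcm2) and lower in 2 (Uhrf1 and Ung). Of the kinesin and cytokinesis genes, Cit and Racgap1 rose and Cep55 fell by 0.44 on the log2 scale. E2f4, the main E2F of the DREAM complex, rose by 0.85 (SE 0.118; edgeR adjusted p = 0.000293) and its partner Tfdp1 by 0.30, the 2 of 14 called in that list. Cdkn3, a phosphatase of CDKs, was the 1 of 6 called among CDK inhibitors (0.51), and Ncapg the 1 of 17 called among condensin and cohesin genes. None of these lists had a called gene in LT-HSC mutants by edgeR.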

How the data were processed

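Sequencing covered 12 libraries, 3 per group. Each was made from 10 ng of RNA with a Smarter ultra-low-input kit, per the labels' protocols, which leaves the strand unknown. The authors' tables hold RSEM's expected counts and TPM per gene, per the file headers. STAR, RSEM and the mm10 genome are named in the submitters' processing notes, without versions. Of the members, 5 had a fractional expected count in some library (Ccna2, Ccnd3, Ccne2, Kif20a and Nusap1). Exon bases of 12 members are shared with a gene of the tables on the opposite strand, whose reads cannot be told apart. Neighbours not found in the tables by their symbol, such as LTO1 opposite Ccnd1, are not in this count.

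Expected counts were rounded and tested with edgeR 4.0.16 in R 4.3.3 (quasi-likelihood test, TMM scaling, filterByExpr by group with minimum count 10 and minimum total 15, Benjamini-Hochberg adjustment over all genes tested, threshold 0.05). Genotype was tested within each cell type over 6 libraries, cell type over the 6 controls, and the interaction over all 12. Displayed CPM use 1 TMM scaling over the 12 libraries. SE is the log2 fold change divided by the root of F. The count test was also run on simulated data with known changes larger than that of any member. It therefore does not show how well changes of the members' size are found. Alternatives were DESeq2 1.42.0, other scalings, no filter, a joint fit, a replicate block, a joint fit with only the vav-cre controls, and each library left out in turn.

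Groups and replicate numbers came from the labels. As a check of pairing, deviations from group means correlated across genes for LT-HSC controls and mutants of 1 number (r = 0.108, 0.147 and 0.175), while MPP controls and mutants did not (-0.0245, -0.212 and -0.177), nor did controls of the 2 cell types (0.0598, -0.263 and 0.0683). Pairs of unlike number lay between -0.202 and 0.0558 in LT-HSC. They reached 0.21 in MPP and 0.202 between controls of the cell types, so the check does not establish a pairing. No 2 libraries of a group agreed within sampling noise.

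The members and lists were chosen with earlier results of these data known. Library values are given for up to 10 called members of smallest p per comparison and for 14 fixed genes, the extremes of each role are named, and up to 3 called genes of smallest p are named per other list. Single genes added after their values were seen are Ube2c and Rbl1 in LT-HSC, the members without overlap, and the exon neighbours. Promoters came from RefSeq's table of GRCm38.p6, and gene positions from an annotation of GRCm38.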

Additional observations from a re-analysis of the deposited data

How the results depend on the processing

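The 3 comparisons of groups and the interaction were recomputed under up to 18 alternatives, and no member changed its call to the opposite direction. The number of members called in MPP mutants was 15 and became 10 with the replicate block, 10 with the joint fit, 0 with the joint fit and only vav-cre controls together, and 7 to 20 with 1 library left out. Between control cell types 29 members were called, 25 with the joint fit, 1 with the joint fit and only vav-cre controls, and 25 to 30 with 1 library left out. In LT-HSC mutants 0 members were called under every alternative run, and the interaction called 0 except for 1 without LT-HSC mutant 3 (Ccna2, edgeR adjusted p = 0.027). Without LT-HSC mutant 3 the interaction also called the most genes over the whole set, 885 of 13513. The replicate block changed no other member count by over 1.5 times. It gave 30 members between cell types and 0 in LT-HSC and in the interaction. Over all genes, the 54 calls in LT-HSC became 280 with DESeq2, 250 with the joint fit and 13 to 102 with 1 library left out. The 4337 calls in MPP became 2792 with the joint fit, 125 with the joint fit and only vav-cre controls, and 2774 to 4756 with 1 library left out, and the 4942 between cell types became 327 with the joint fit and only vav-cre controls. The 50 interaction calls became 341 with DESeq2, 87 with no filter, 24 with the replicate block, 0 with only vav-cre controls in the same joint fit (829 at an unadjusted p under 0.05) and 1 to 885 with 1 library left out, and upper-quartile scaling moved their share of higher calls from 40% to 26.8%. The cause of these shifts was not tested. Fewer controls enter the vav-cre setting, with 1 in MPP, which is assumed to vary like the other groups.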

Other observations

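Some genes whose exons lie opposite those of members changed in MPP mutants, and the sources do not say that the counting used strand. Rb1 rose (log2 1.20) while Lpar6 fell by 1.39 (SE 0.165; edgeR adjusted p = 0.000101) and Rcbtb2 fell by 0.79 (SE 0.105; edgeR adjusted p = 0.000218) on the log2 scale. Ints8, opposite Ccne2, rose by 0.40 beside 0.37 for Ccne2. Elovl1, opposite Cdc20, rose by 0.41 beside 0.59 for Cdc20. Bysl, a ribosome assembly factor opposite Ccnd3, rose by 0.63 (SE 0.104; edgeR adjusted p = 0.000912) beside 0.23 for Ccnd3, which was not called. Oip5, a centromere protein opposite Nusap1, rose by 0.40 (SE 0.105; edgeR adjusted p = 0.0132), and Nusap1 stood at 0.02. Exosc9, opposite Ccna2, stood at 0.12 and was not called, beside 0.52 for Ccna2. Among the other pairs tested, Spef1 stood at -0.62 beside 0.54 for Cdc25b, Pmel at -0.38 beside -0.19 for Cdk2, Tspan31 at -0.28 beside -0.13 for Cdk4 and Cdc23 at 0.10 beside 0.07 for Kif20a, and none of these 4 neighbours was called. The pairs were taken from exon overlap after values of the members had been seen, and the share of reads that either gene takes from the other was not tested.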
